A study of Mus musculus with 4 samples.

Results

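Tumor eosinophils were the cells that the deposited annotation placed in the cluster named Eosinophils. They were 510 of the 4108 CD45+ cells from 20967 melanomas, with 478 of 3803 cells from control tumors and 32 of 305 cells from tumors treated with glucocorticoid (GC). The cluster had the lowest RNA content of the 16 clusters, with a median of 869 UMIs (unique molecular identifiers, each counted as 1 captured RNA molecule) and 519 genes per cell.

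The study examined immune cells infiltrating a mouse melanoma after topical GC. The 20967 line came from C57BL/6 mice carrying Nras+LSL-G12D;Tyr::CreERT2+/o, in which a tamoxifen-inducible Cre driven by the tyrosinase promoter acts in melanocytes, and the tumors were grown in wild type C57BL/6 mice. Animals in both groups therefore carried the same tumor line and had unmodified immune cells. Control tumors had the label Control, and GC tumors received clobetasol propionate, a potent synthetic GC used in skin creams. Each group had 5 tumors tagged with separate hashtag antibodies and pooled into 1 droplet channel, with 17100 control and 3500 GC cells loaded. Treatment and channel cannot be told apart, and the spread used in each test was the spread between hashtagged tumors of the same channel. No cell barcode was shared by the channels.

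Eosinophils are granulocytes that mature in bone marrow under interleukin 5 and enter tissue along eotaxin gradients sensed by the receptor CCR3. They store cationic proteins in granules, carry the inhibitory lectin Siglec-F in mice, and make lipid mediators, cytokines and chemokines. In tumors they have been linked with both tumor killing and tissue repair, and GCs are long known to lower eosinophil numbers in allergic disease.

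The 3 eosinophil markers examined in the cluster were present. Siglecf, which encodes Siglec-F (GRCm38 chr7:43351341-43359531, plus strand), was measured at 2.13, 1.43, 2.47, 0.902 and 1.14 UMIs per 10000 in the eosinophils of control tumors 1 to 5. Ccr3 (chr9:124021972-124031689, plus strand) was measured at 9.61, 11.0, 8.16, 6.96 and 11.2 UMIs per 10000 in the same tumors, and Il5ra, the interleukin 5 receptor alpha chain (chr6:106710357-106749037, minus strand), at 0.667, 0.430, 0.474, 1.29 and 0.686. All 3 were found in every control tumor. The neutrophils of the same tumors, the other granulocyte cluster and the closest in cell type, had pooled levels of 0.209, 0.0598 and 0 UMIs per 10000 for Siglecf, Ccr3 and Il5ra, with 14, 4 and 0 UMIs.

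The 250 bases before the annotated start of each marker gene are shown because these genes mark the cell type. GATA1 is the transcription factor that commits progenitors to the eosinophil lineage, and matches to its core motif are in capitals. The words searched on both strands were AGATAA, its variant with another last letter AGATAG, and the forms with another first letter, which are TGATAA and, for the variant, TGATAG. No marked match overlaps another. The sequences are from RefSeq on GRCm38.p6, written 5′ to 3′ on the gene's own strand, for Siglecf at chr7:43351091-43351340, Ccr3 at chr9:124021721-124021970 and Il5ra at chr6:106749038-106749287.
Siglecf: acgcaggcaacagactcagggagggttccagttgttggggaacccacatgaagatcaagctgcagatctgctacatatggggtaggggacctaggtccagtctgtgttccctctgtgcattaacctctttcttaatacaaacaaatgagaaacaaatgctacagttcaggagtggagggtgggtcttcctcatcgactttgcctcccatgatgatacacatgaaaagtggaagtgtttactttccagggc
Ccr3: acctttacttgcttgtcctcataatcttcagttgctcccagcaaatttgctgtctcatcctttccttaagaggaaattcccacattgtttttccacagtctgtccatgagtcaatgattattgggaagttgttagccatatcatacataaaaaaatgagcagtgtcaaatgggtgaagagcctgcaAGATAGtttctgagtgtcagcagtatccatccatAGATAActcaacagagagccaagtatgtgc
Il5ra: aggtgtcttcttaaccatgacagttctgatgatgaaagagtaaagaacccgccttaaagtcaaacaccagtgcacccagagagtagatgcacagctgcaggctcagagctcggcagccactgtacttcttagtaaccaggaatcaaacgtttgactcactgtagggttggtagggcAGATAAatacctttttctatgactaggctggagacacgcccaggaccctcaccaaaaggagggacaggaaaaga
The Ccr3 window held 2 matches, 64 and 30 bases before the start, the Il5ra window held 1, 74 bases before the start, and the Siglecf window held none. Of 32851 RefSeq promoter windows of this length, 26.5% held at least 1 match and 6.40% held at least 2. A match is a description of letters and not a measured binding site. Gata1 itself was detected at 19 UMIs (0.417 per 10000) in control eosinophils and at 0 in neutrophils.

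Depth limited every value from these cells. Control eosinophils had a median of 873.5 UMIs per cell and a highest value of 2399, against a median of 4220.5 in control neutrophils, and GC eosinophils had a median of 721. The control eosinophils held 456170 UMIs in all (43713 to 190052 per tumor) and the GC eosinophils 40043. In the 5 control tumors 82, 70, 195, 81 and 50 eosinophils were captured, and in the 5 GC tumors 4, 10, 9, 1 and 8. When each cell was reduced to 500 UMIs, control eosinophils showed a median of 342 genes and control neutrophils 331, so that per molecule the 2 granulocyte clusters were close while lymphocytes and macrophages were higher (405 in the largest CD8 cluster and 395 in tumor-associated macrophages, TAM).

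**Figure D1:**
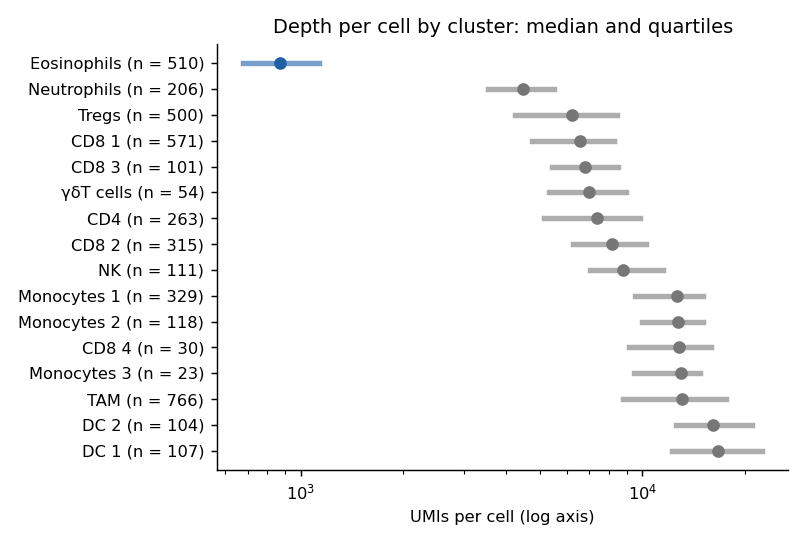
UMIs per cell in each of the 16 annotated clusters on a log axis, with points at the median and lines from the lower to the upper quartile over the cells of both groups. Eosinophils lie lowest, with a median of 869 UMIs against 4472.5 in neutrophils and 16683 in the deepest cluster, DC 1.

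The low depth meant that most eosinophils did not show each marker. After reduction to 500 UMIs per cell, a Ccr3 UMI was found in 33.5% of the 478 control eosinophils (exact Clopper-Pearson 95% interval 29.3 to 37.9) and in 0 of 162 neutrophils, which allows a share of up to 2.25%. At least 1 UMI of Siglecf, Ccr3 or Il5ra was present in 40.4% of control eosinophils (35.9 to 44.9), against 1.85% of control neutrophils (0.384 to 5.32) and 0% of 723 control TAM (upper limit 0.509%). Before the reduction the shares were 55.2%, 9.88% and 2.49%, at median depths of 873.5, 4220.5 and 12883 UMIs. The reverse held for the neutrophil genes S100a8, S100a9 and Csf3r, with at least 1 UMI in 4.81% of control eosinophils (3.07 to 7.13) and 95.7% of control neutrophils (91.3 to 98.2) at 500 UMIs per cell. These intervals cover counting error only.

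Within the control eosinophils, the levels of some genes per UMI differed between shallower and deeper cells. In the 239 cells below the median depth Ccr3 was measured at 8.16 UMIs per 10000 (95% Poisson interval 6.83 to 9.68), and in the 238 cells at or above it at 9.39 (8.31 to 10.6). Alox15, the lipoxygenase described below, was at 7.79 (6.49 to 9.28) and 7.1 (6.17 to 8.13), and Siglecf at 1.30 (0.804 to 1.99) and 2.18 (1.68 to 2.79). The intervals of these 3 genes overlapped between the shallower and the deeper cells, for Siglecf only in part, which does not show equal levels. Retnlg, which encodes a secreted resistin-like protein, was at 48.0 UMIs per 10000 in the shallower cells and 78.8 in the deeper cells, the actin-binding peptide gene Tmsb4x at 97.3 and 154, and Gm42418, which overlaps ribosomal RNA sequence, at 376 and 250. The intervals of Retnlg, Tmsb4x and Gm42418 did not overlap.

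A few cells of the cluster carried another identity. The 9 listed mast cell and basophil genes, among them the mast cell protease genes Cpa3 and Mcpt4, the IgE receptor genes Fcer1a and Ms4a2 and the receptor gene Kit, reached 3 or more UMIs in 4 cells, 1 from control tumor 3, 2 from GC tumor 2 and 1 from GC tumor 5. These 4 cells held 54, 107, 370 and 92 UMIs of the list, while no other eosinophil held more than 1. Their UMIs of Siglecf, Ccr3 and Il5ra summed to 1. Since the deepest of them had 8866 UMIs, the 3 GC cells held 39.5% of all UMIs of the GC eosinophils, whereas the control cell held 0.326% of the control UMIs. Gene changes under GC are therefore given below without these 4 cells, which left 477 control and 29 GC eosinophils. Some calls, and the numbers of calls, are also given with all 510 cells. Levels in control eosinophils, cell shares, depth and the mitochondrial share keep these cells unless stated otherwise. The removal was chosen after the data were seen.

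**Figure D2:**
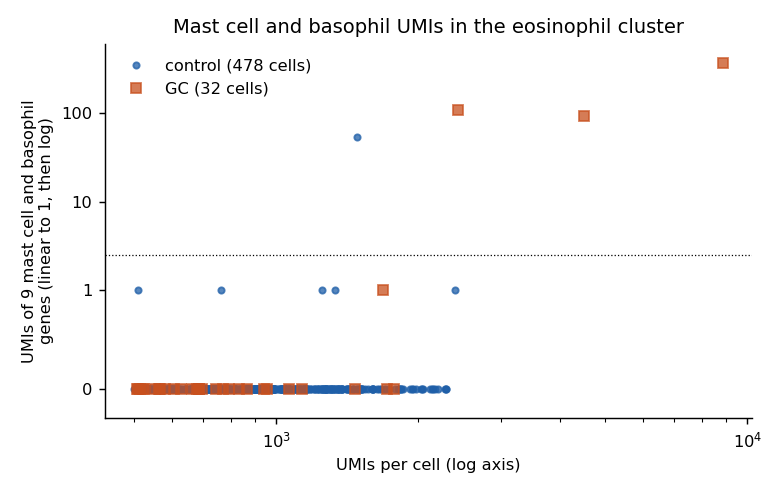
Each point is 1 of the 510 annotated eosinophils, colored by group. The horizontal axis shows its total UMIs on a log scale. The vertical axis shows its UMIs of 9 mast cell and basophil genes on a scale linear to 1, then log. The 4 cells with 54 to 370 mast and basophil UMIs stand apart, and every other cell has 0 or 1.

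Markers of other immune cells were also measured in the control eosinophils. Neutrophil markers other than Retnlg were scarce, with S100a8 at 0.175 and S100a9 at 0.504 UMIs per 10000, 1129-fold and 443-fold lower than in neutrophils, and with no UMI of Lcn2, Ly6g, Camp or Ngp. The 12 macrophage and monocyte genes summed to 16.5 UMIs per 10000, against 10.0 in the deeper control neutrophils, and to 1.57 UMIs per cell against 4.13. The 8 T cell genes summed to 1.64 UMIs per 10000 against 0.389 in neutrophils, and to 0.157 UMIs per cell against 0.160. The melanoma genes summed to 0.548 UMIs per 10000, all of it Mitf. Erythroid genes were at 0.

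The eosinophil lineage program was present in part. Of the 9 granule genes, Prg2, encoding major basic protein, was measured at 2.61 UMIs per 10000 (2.16 to 3.89 over the tumors) and at 0 in neutrophils, at least 58.2-fold higher, and the tetraspanin gene Cd63 at 3.79 against 1.18 in neutrophils. Ear6, of the eosinophil-associated ribonuclease family, had 13 UMIs. Epx (eosinophil peroxidase), Prg3, Ear1, Ear2, Ear10 and Ear14 had 0 UMIs in all control eosinophils, which allows at most 0.0658 UMIs per 10000 for each. Ear family genes are near-identical copies, so reads that fit several of them may not have been counted. Of the listed granule genes, Prg2, Cd63 and Ear6 thus had UMIs in control eosinophils.

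Of the surface receptors, Adgre1, encoding F4/80, was measured at 5.90 UMIs per 10000 against 0.882 in neutrophils, the integrin gene Itgam at 10.3 against 5.02, Itga4, an integrin subunit used in tissue entry, at 7.04 against 2.06, and Il1rl1, the interleukin 33 receptor, at 2.37 against 0.0299. Lower than in neutrophils was Csf2rb, the common beta chain of the interleukin 5, interleukin 3 and GM-CSF receptors, at 2.21 against 6.43. Both clusters had the chemokine receptor gene Cxcr4, with 16.7 UMIs per 10000 in eosinophils and 8.42 in neutrophils.

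The genes with the largest folds over the mean of the other 15 clusters were led by Alox15 (chr11:70344152-70352031, minus strand), which encodes the arachidonate 15-lipoxygenase that makes resolving and inflammatory lipid mediators. Alox15 was measured at 8.14, 8.45, 6.21, 8.50 and 6.86 UMIs per 10000 in control tumors 1 to 5. It had no UMI in 162 control neutrophils, so that it was at least 163-fold higher in eosinophils against a floor of 3 UMIs over all of them. Dach1 (chr14:97786853-98169765, minus strand), a transcriptional cofactor gene, was at 52.7, 42.8, 50.8, 63.3 and 46.7 UMIs per 10000 in the same tumors. Neutrophils had 2.68, 19.3-fold lower, and 71.5% of control eosinophils held a Dach1 UMI at 500 UMIs per cell against 7.41% of neutrophils and 0.553% of TAM. The group also held Serpinb2, an inhibitor of plasminogen activators, Fer, a tyrosine kinase gene, the ion exchanger gene Slc24a3, the glycoprotein gene Cd24a, Ckap4, Ccr3 and Retnlg. Serpinb2 was at 25.6 to 27.3 UMIs per 10000 in 4 tumors and 44.2 in control tumor 2, and at 0.359 in neutrophils.

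Since the authors clustered cells on their expression, differences between the 2 granulocyte clusters are descriptions and were not tested. Of 472 genes with at least 5 UMIs per 10000 in either cluster, 153 were higher in eosinophils and 200 higher in neutrophils with no overlap of the 5 control tumors. Beside the genes above, those with the largest folds over neutrophils were Tmcc3, Dip2c, Ikzf3 (a lymphoid zinc finger factor also known as Aiolos), Ahr and Sema7a. Ahr, the aryl hydrocarbon receptor that senses environmental and microbial ligands, was at 5.28 UMIs per 10000 against 0.0747, and Sema7a, a membrane semaphorin gene, at 6.2 against 0.164. Tmcc3, Dip2c and Ikzf3 were at 6.44, 5.72 and 5.59 UMIs per 10000, with 3, 1 and 1 UMIs in all control neutrophils. The genes lowest relative to neutrophils were S100a8, S100a9, Cxcr2, Csf3r, Rdh12, Lcn2, Il1f9, Nlrp3, Trem1 and Il15. Among these, Csf3r, the receptor for G-CSF, was at 0.241 UMIs per 10000 against 26.2 in neutrophils, 109-fold lower, and Nlrp3, the inflammasome sensor gene, at 0.351 against 16.6, 47.3-fold lower.

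**Figure D3:**
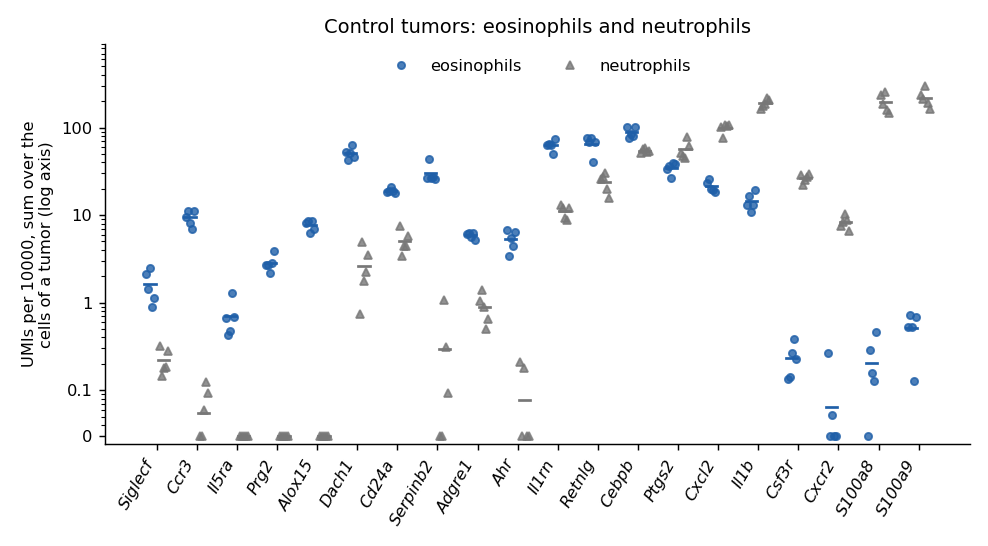
UMIs per 10000 on a log axis for 20 genes in the eosinophils and neutrophils of the 5 control tumors, each point 1 tumor, bars at the means, and values of 0 drawn at the bottom of the axis. Alox15, Ccr3 and Prg2 lie near 0 in neutrophils and between 2.16 and 11.2 in eosinophils, and S100a8 and S100a9 lie far apart in the opposite order.

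The cytokine genes of control eosinophils differed from those of neutrophils. Il1rn, encoding the interleukin 1 receptor antagonist, was measured at 62.4 UMIs per 10000 (49.6 to 74.6 over the tumors) against 10.7 in neutrophils, while Il1b was at 13.3 (10.9 to 19.2) against 191. Of the chemokine genes, Ccl6 was higher in eosinophils (38.6 against 11.1) and Cxcl2 lower (21.1 against 98.9). Thbs1, encoding the matrix protein thrombospondin 1, was at 47.4 against 28.6, and the angiogenic factor gene Vegfa at 12 against 2.63. Il4, the canonical type 2 cytokine gene, was at 1.33, 2.43, 0.737, 1.80 and 4.58 UMIs per 10000 in the 5 tumors, with a UMI in 5.44% of cells at 500 UMIs (3.58 to 7.87) against 0.617% of neutrophils and 0% of TAM. Il13 had 6 UMIs. Il6 was at 2.32 UMIs per 10000, with 0 UMIs in neutrophils.

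Among the genes of activation and lipid mediators, Tgm2, a transglutaminase gene, was at 39.3 UMIs per 10000 against 12.5 in neutrophils, Tnfaip3, a brake on NF-kappaB signaling, at 24.6 against 9.13, and the costimulatory ligand gene Cd80 at 12.9 against 11.2. Cd274, encoding PD-L1, was at 1.58 against 8.13. Pla2g7 and Pla2g4a, encoding phospholipases A2, were at 26.9 against 7.32 and 8.29 against 0.419, and Ptgs2, the inducible cyclooxygenase gene, at 32.5 against 57.1. No UMI of Ltc4s, the leukotriene C4 synthase gene, was found. Of the transcription factor genes, Cebpb was at 87.0 against 54.9.

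The 5 control tumors had similar eosinophils by these measures. Over 823 genes with at least 100 UMIs, the ratio of the highest to the lowest tumor had a median of 1.68, it was under 2 for 596 genes, and it was 3 or more for 37. The gene that varied most beyond counting error was G0s2, an inhibitor of lipolysis, at 38.2, 42.7, 60.8, 30.0 and 63.8 UMIs per 10000. Retnlg was at 75.2, 67.6, 75.6, 40.6 and 68.4, lowest in control tumor 4.

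The eosinophil share of sorted CD45+ cells did not differ beyond the spread between tumors. It was 10.3, 8.34, 15.6, 14.2 and 14.4% in control tumors 1 to 5 (12.6% ± 3.09, SD, n = 5) and 22.2, 13.3, 8.11, 4.55 and 10.1% in GC tumors 1 to 5 (11.7% ± 6.71, SD, n = 5). GC tumors spanned the whole control range and passed it on both sides, with 18 to 111 sorted cells each. The difference of -0.901 percentage points had p = 0.794 by an exact two-sided permutation test over 252 arrangements (0.794 after Benjamini-Hochberg adjustment over 4 cell measures). Without GC tumor 4, which had 1 eosinophil, the difference was 0.880 percentage points.

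Eosinophils were a smaller share of granulocytes in GC tumors. They made up 77.4, 70.0, 83.3, 66.9 and 63.3% of eosinophils plus neutrophils in control tumors (72.2% ± 8.10, SD, n = 5) and 66.7, 34.5, 39.1 and 53.3% in GC tumors 1, 2, 3 and 5 (48.4% ± 14.6, SD, n = 4), GC tumor 4 having only 3 granulocytes. GC tumors 2, 3 and 5 were below every control tumor and GC tumor 1, with 6 granulocytes, was within the control range. The difference of -23.8 percentage points had p = 0.0159 (exact two-sided permutation test, adjusted p = 0.0317), and it was -25.8 without the mast cell marker cells. Neutrophils were 3.02, 3.58, 3.12, 7.01 and 8.36% of sorted CD45+ cells in control tumors and 11.1, 25.3, 12.6, 9.09 and 8.86% in GC tumors 1 to 5, every GC tumor lying above every control tumor, with 2 neutrophils each in GC tumors 1 and 4. The lower eosinophil share of granulocytes thus went with a higher neutrophil share, while the eosinophil share of CD45+ cells overlapped between the groups. Leaving out control tumor 1, 2, 3 or 4 in turn gave p = 0.0571 in the same exact test, with differences of -22.5, -24.3, -21.0 and -25.1 percentage points.

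Eosinophils from GC tumors also held fewer UMIs by the median per cell. The median per cell was 831.5, 871.5, 898, 861 and 824.5 in control tumors 1 to 5 and 810.5, 728.5, 627 and 769 in GC tumors 1, 2, 3 and 5. Every GC value lay below every control value. The difference was -0.24 on the log2 scale, with p = 0.00794 by the exact two-sided permutation test, the smallest that its 126 arrangements can give (adjusted p = 0.0317). With the mean in place of the median of log2 UMIs, which the few deep mast cell marker cells raise, the difference was 0.041 (exact p = 0.738). The median mitochondrial share was 0.563 to 1.00% in control tumors and 2.59, 1.25, 0.388 and 2.59% in the same GC tumors (difference 0.980 percentage points, exact p = 0.0952, adjusted p = 0.127). Without GC tumor 3 this difference was 1.42 percentage points (exact p = 0.0179). The lowest totals among the eosinophils were 500 UMIs in control and 507 in GC tumors. Depth and both eosinophil shares therefore describe retained cells only, and any cells with fewer UMIs were not seen. Neutrophil depth went the other way, with pooled medians of 4220.5 UMIs in control and 5881.5 in GC tumors, which was not tested.

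Gene expression under GC was compared between the 5 control tumors and GC tumors 2, 3 and 5, which had at least 5 eosinophils. Without the mast cell marker cells these 3 tumors held 24 eosinophils and 20469 UMIs, so 1 UMI was worth 1.29 to 1.68 units per 10000 in a GC tumor. Values below are the mean over a tumor's eosinophils of UMIs per 10000, and changes are log2 differences of that mean plus 1, which understate the change of low genes. By limma with Benjamini-Hochberg adjustment over 1894 genes, 24 genes rose (1.27%) and 84 fell (4.44%). With all eosinophils 23 of 1898 rose (1.21%) and 84 fell (4.43%), and 93 genes were called both times, 86.9% and 86.1% of each list. edgeR on the summed UMIs called 108 of the 1894 genes (5.70%), of which 60 were among the 108 called by limma, 51 of them lower. The call was kept in each of the 8 fits that left out 1 tumor for 26 of the 108 genes. The number of calls ranged from 27 to 371 over these fits. It was 27 to 33 without any 1 control tumor, 308 without GC tumor 2, 371 without GC tumor 3 and 317 without GC tumor 5.

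Several genes of inflammatory mediators fell. Il1b was 13.0, 16.5, 11.8, 13.7 and 22.1 UMIs per 10000 in control tumors 1 to 5 and 2.26, 4.73 and 0 in GC tumors 2, 3 and 5. No GC tumor reached the lowest control tumor, and the log2 change was -2.60 ± 0.47 (SE, limma adjusted p = 0.00877, and 0.0043 with all eosinophils). Acod1, the gene of the enzyme that makes itaconate in activated myeloid cells, was 30.6, 33.9, 37.3, 52.3 and 41.9 in control tumors and 8.22, 7.85 and 4.92 in GC tumors, a log2 change of -2.33 ± 0.26 (limma adjusted p = 0.00169, and 0.000697 with all eosinophils). It passed the threshold under each alternative listed at the end, with adjusted p up to 0.0146. Il1a, encoding interleukin 1 alpha, was 2.44 to 4.25 in control tumors and had no UMI in the 3 GC tumors (limma adjusted p = 0.00627), and its pooled level was at least 2.31-fold lower against a floor of 3 UMIs over these tumors. It passed the filter on level only through the control tumors. The same held for Ccl9, Il1rl1, Plac8, Cpeb2, Cd74 and H2-Ab1 below, with no UMI in these GC tumors, and for Ccl4 and Il6, with 1 each. Genes as low as this in both groups were not tested.

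Of the 23 listed cytokine and chemokine genes 14 were tested, and 6 fell (Il1b, Il1a, Il6, Osm, Ccl4 and Ccl9) while none rose, by limma, which called 4.44% of all tested genes lower. Of the same 14 genes edgeR called 7 and DESeq2 called 2, Il1b and Ccl6. The median log2 change of the 14 was -1.55, beside -0.13 over all tested genes. Without the mast cell marker cells, the summed level of all 23 listed genes overlapped between the groups. It was 189 to 244 UMIs per 10000 in control tumors and 115 to 264 in the tested GC tumors, and the sum was not tested. Ccl4, a chemokine gene, was 3.48 to 6.96 UMIs per 10000 in control tumors and 0, 0.755 and 0 in GC tumors (-2.34 ± 0.38). Osm, encoding oncostatin M, was 4.12 to 5.64 and 0, 2.42 and 0 (-1.96 ± 0.44), and Il6 was 1.64 to 3.43 and 0, 0 and 0.847 (-1.49 ± 0.37). These 3 genes had limma adjusted p of 0.00627, 0.0233 and 0.0365. Il6 rested on 1 UMI in the GC tumors, and edgeR gave an adjusted p of 0.16 for it.

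Il1r2 also fell. This gene of an interleukin 1 decoy receptor, which GC raises in several other leukocytes, was 7.76, 6.42, 9.52, 6.24 and 8.85 UMIs per 10000 in control tumors and 0, 1.28 and 1.80 in GC tumors, a log2 change of -2.22 ± 0.38 (limma adjusted p = 0.0069, and 0.0043 with all eosinophils). Il1rl1, the interleukin 33 receptor, was 1.57 to 3.38 in control tumors and had no UMI in the GC tumors once the mast cell marker cells were left out (limma adjusted p = 0.0153). With those cells, which held 45 Il1rl1 UMIs, its log2 change was 0.06 (limma adjusted p = 0.969), and edgeR called it higher (2.22, adjusted p = 0.0218). The call without these cells was kept in 4 of the 8 fits that left out 1 tumor. Il1rl1 was the only 1 of 10 tested surface receptor genes to be called by limma, and their median change was -0.54.

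Of the other genes that fell most, G0s2 was 36.2, 43.5, 58.8, 29.9 and 60.2 UMIs per 10000 in control tumors and 0, 4.3 and 16.4 in GC tumors, a log2 change of -3.32 ± 0.67 (limma adjusted p = 0.0153, and up to 0.0697 over the alternatives). Plac8, a small cysteine-rich protein gene, was 4.95 to 5.86 in control tumors and had no UMI in the GC tumors, at least 3.47-fold lower in pooled level (limma adjusted p = 0.00222, and up to 0.058). Cpeb2, a regulator of translation, was 3.52 to 6.35 in control tumors and also at 0 in the GC tumors, at least 3.32-fold lower (limma adjusted p = 0.00342). Kctd12, Lmnb1 (lamin B1), Emilin2, Lilrb4a (an inhibitory receptor) and Nabp1 had log2 changes of -2.70, -2.48, -2.47, -2.35 and -2.17. Pim1, a kinase that sustains granulocyte survival under cytokines, was 59.2, 56.8, 65.6, 47.9 and 55.9 in control tumors and 15.6, 29.3 and 21.4 in GC tumors (-1.37 ± 0.24, limma adjusted p = 0.00813). Pim1 was the only called gene of the 10 tested in the survival and death list, whose median change was 0.26. Pla2g7 fell by 1.5 on the log2 scale (limma adjusted p = 0.0348) and was the only called lipid mediator gene of 7.

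Genes of macrophages were lower in the 3 GC tumors tested. The summed level of the 12 macrophage and monocyte genes was 14.2 to 20.1 UMIs per 10000 in control tumors and 0 to 2.26 in GC tumors 2, 3 and 5, and of its 4 tested members Cd74 and H2-Ab1, both of MHC class II presentation, fell. Cd74 was 3.54 to 5.39 UMIs per 10000 in control tumors and 0 in all 3 GC tumors, at least 2.90-fold lower in pooled level. Cd74 was measured in other control clusters at a pooled 38.4 UMIs per 10000 and in other GC clusters at 25.2. GC tumors 1 and 4 were not in the test. Of the 46 UMIs of the 12 genes in the 29 GC eosinophils, 43 were in 1 cell of GC tumor 1, with 1064 UMIs in all. With it the pooled GC level was 19.0 UMIs per 10000, and without it 1.29, against 16.5 in control eosinophils, where 337 of 477 cells held a UMI of the list and 3 held 10 or more. The part of macrophage RNA in these differences was not tested. The complement genes C1qa, C1qb and C1qc, which define tumor macrophages, were at 0.877, 0.438 and 0.438 UMIs per 10000 in control eosinophils and at 0 in the 3 GC tumors, under the filter on level.

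RNA quality values also differed between the groups. Gm42418 was 306 to 333 UMIs per 10000 in control tumors and 126, 197 and 131 in GC tumors 2, 3 and 5 (log2 change -1.12 ± 0.18, limma adjusted p = 0.00641). GC tumor 1, with 4 cells and not in the test, had 1035 and lay above every control tumor. Malat1, a nuclear RNA, was 80.8 to 123 in control tumors and 119, 13.4 and 119 in GC tumors 2, 3 and 5, so that GC tumor 3 stood apart from the other two. The part of RNA quality in the gene changes was not tested.

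Fewer genes rose than fell by limma (24 and 84) and edgeR (20 and 88), whereas DESeq2 called 37 higher and 30 lower. Fmnl2, a formin gene of the actin cytoskeleton (chr2:52857860-53133804, plus strand), was 0.691, 0.464, 0.368, 0.819 and 0.422 UMIs per 10000 in control tumors and 56.6, 5.18 and 61.6 in GC tumors, a log2 change of 4.19 ± 0.63 (limma adjusted p = 0.00627, and 0.00344 with all eosinophils). The GC values came from 91 UMIs in 13 of 24 cells, with 20 and 25 of them in 1 cell each of GC tumors 2 and 5. Every control tumor was under the filter of 1 per 10000, which Fmnl2 passed only through the GC tumors. Fmnl2 was called in each of the 8 fits without 1 tumor, with changes of 3.61 to 5.28, and adjusted p reached 0.0264 at most over the alternatives. Serinc3, a membrane protein gene (chr2:163623272-163645131, minus strand), was 6.8, 6.26, 6.24, 6.58 and 8.33 in control tumors and 20.1, 21.5 and 31.6 in GC tumors (1.67 ± 0.25, limma adjusted p = 0.00627). Every GC tumor was above every control tumor for both genes. Over the alternatives the adjusted p of Serinc3 reached 0.196.

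Txnip, a GC-induced inhibitor of thioredoxin and glucose uptake, was 2.86, 4.24, 2.99, 3.02 and 3.06 UMIs per 10000 in control tumors and 18.2, 10.8 and 11.5 in GC tumors (1.75 ± 0.29, limma adjusted p = 0.00644, and up to 0.738 over the alternatives). Slc7a8, an amino acid transporter gene, was 2.14 to 4.62 and 13.3, 10.3 and 13.1 (1.57 ± 0.29, limma adjusted p = 0.0102), but had an adjusted p of 0.163 by edgeR. Klhl6, an adaptor of a ubiquitin ligase, was 0.148 to 0.756 and 4.42, 11.1 and 2.65 (2.16 ± 0.42, limma adjusted p = 0.0127), from 14 UMIs in 5 cells, and was called in 4 of the 8 fits without 1 tumor. Snx10, Galnt7, Nsun2, Usp38 and Bmpr2 rose by 1.69, 1.61, 1.66, 1.61 and 1.54 on the log2 scale by limma, from 5 to 19 UMIs each in the GC tumors. The call of each was kept in only 2 or 3 of the fits without 1 tumor, and edgeR gave adjusted p of 0.278, 0.354 and 0.187 for Nsun2, Usp38 and Bmpr2. Galnt7, Bmpr2 and Nsun2 overlap other annotated genes. Mitf and Zfp36l2 passed only with all eosinophils (log2 changes 1.75 and 1.58, limma adjusted p = 0.00749 and 0.0178). Without the mast cell marker cells their adjusted p was 0.298 and 0.11. Klhl6, Galnt7, Nsun2, Usp38, Bmpr2 and Mitf had 19 to 24 UMIs each in the control eosinophils, under 1 per 10000. They passed the filter on level only through the GC tumors, so a fall at their control level could not have been tested.

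**Figure D4:**
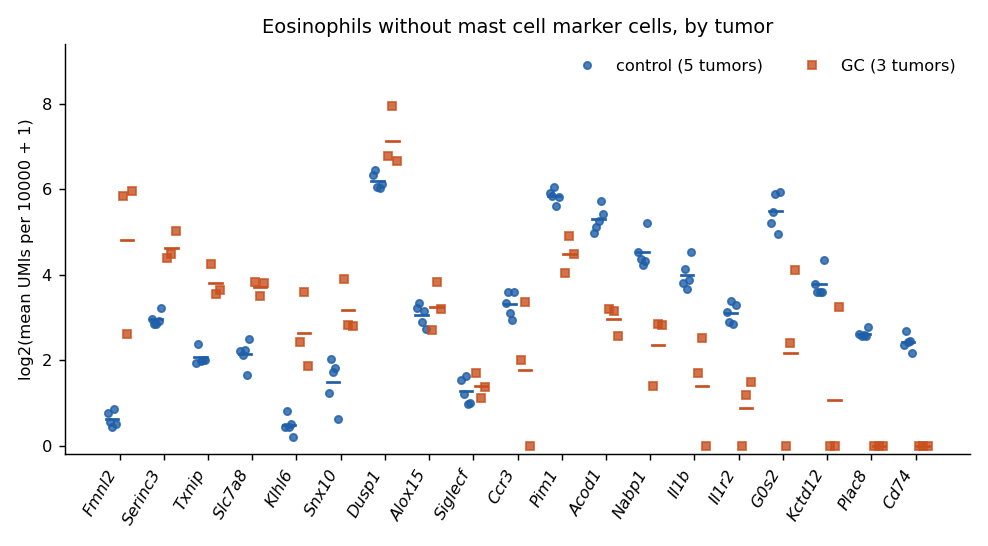
Mean UMIs per 10000 plus 1 on a log2 scale for 19 genes in the eosinophils of 5 control and 3 GC tumors, without the mast cell marker cells, each point 1 tumor and bars at the means. Fmnl2, Serinc3 and Txnip lie higher in all 3 GC tumors, Il1b, Acod1 and Pim1 lie lower, and Siglecf and Alox15 overlap.

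Few listed GC targets passed the test. Of 18 listed genes for the GC receptor and its targets 10 were tested, Txnip rose, Il1r2 fell, and the median log2 change was 0.25. Dusp1, a phosphatase gene induced by GC, was 79.6, 86.3, 65.9, 64.1 and 68.6 UMIs per 10000 in control tumors and 109, 248 and 100 in GC tumors, with no overlap, but did not pass (0.94 ± 0.28, limma adjusted p = 0.0767). Genes whose groups did not overlap numbered 128 higher (6.76%) and 181 lower (9.56%) of 1894. Fkbp5, a co-chaperone of the GC receptor, was 0 to 0.661 in control tumors and 3.71, 7.09 and 0 in GC tumors, from 7 UMIs (1.34 ± 0.58, limma adjusted p = 0.208), and of the 3 tests only DESeq2 called it. Its control values were under the filter on level, which it passed only through the GC tumors. Tsc22d3, encoding the GC-induced leucine zipper, was 0.840 to 1.04 in control tumors and 0, 4.38 and 0 in GC tumors (-0.16 ± 0.53, adjusted p = 0.911), and Nr3c1, the GC receptor itself, was 0.439 to 2.47 and 3.34, 2.18 and 1.80 (0.56 ± 0.42, adjusted p = 0.493). Fkbp5, Tsc22d3 and Nr3c1 had 7, 3 and 4 UMIs in the GC tumors, and the change of the last pair turned sign under some alternatives given at the end.

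The identity genes did not pass the test. Siglecf was 1.91, 1.32, 2.13, 0.978 and 1.00 UMIs per 10000 in control tumors and 2.26, 1.18 and 1.61 in GC tumors, a log2 change of 0.13 ± 0.35 (limma adjusted p = 0.888). Alox15 was 5.68 to 9.06 and 5.51, 13.4 and 8.16 (0.18 ± 0.31, limma adjusted p = 0.806). By edgeR the changes of Siglecf and Alox15 were -0.33 and -0.36 (adjusted p = 0.883 and 0.724). Ccr3 was 6.69 to 11.1 in control tumors and 3.00, 9.24 and 0 in GC tumors (-1.53 ± 0.57, limma adjusted p = 0.143), and GC tumor 5 had no Ccr3 UMI. At 500 UMIs per cell, 13.8% of the 29 GC eosinophils (3.89 to 31.7) held a UMI of Siglecf, Ccr3 or Il5ra, against 40.4% of control eosinophils, whereas Alox15 was found in 24.1% (10.3 to 43.5) and 27.8%, and Dach1 in 65.5% (45.7 to 82.1) and 71.5%. A UMI of S100a8, S100a9 or Csf3r was found in 6.90% of GC eosinophils (0.846 to 22.8) against 95.5% of 44 GC neutrophils. These shares pool cells over tumors, GC tumors 1 and 4 included, and their intervals cover counting error only. The 478 control eosinophils keep their mast cell marker cell. Differences between control and GC in these shares were not tested.

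None of the tested genes of activation (10), transcription factors (6), granule proteins (2), chemoattractant receptors (4) or interferon response (3) was called by limma without the mast cell marker cells. At an unadjusted p under 0.05 there were 3, 2, 1, 0 and 1 such genes in these lists, edgeR called Tgm2 and Isg15, and DESeq2 called Tgm2 only. With all eosinophils Tgm2 and Ahr fell (limma adjusted p = 0.0265 and 0.0376). Without those cells their changes were -0.95 and -1.80, with limma adjusted p of 0.0689 and 0.0554. The summed level of all 15 listed interferon-stimulated genes, most of them under the filter, did not overlap between the groups. It was 9.24 to 18.8 UMIs per 10000 in control tumors and 0.847 to 7.55 in GC tumors 2, 3 and 5, without the mast cell marker cells. The 29 GC eosinophils held 0.414 UMIs of this list per cell. The sums of the other lists in this paragraph overlapped, and no sum was tested.

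The GC change was then compared with that of neutrophils from the same 8 tumors by an interaction term, with the tumor as a block. It differed for 71 of 1850 genes (3.84%) without the mast cell marker cells, 17 with a more positive change in eosinophils, and for 62 of 1859 (3.34%) with them. Of the 71 genes 26 were also among 58 called by edgeR. The difference was largest for Chil3, a chitinase-like gene of activated myeloid cells, which was 0 to 0.147 UMIs per 10000 in control neutrophils and 61.1, 68.0 and 83.9 in GC neutrophils. It had 2 UMIs in all control eosinophils and none in the 24 GC eosinophils, and its log2 changes were 6.10 in neutrophils and -0.07 in eosinophils. Chil3, Mt1, Mmp8 and Rnf169 passed the filter on level only through GC neutrophils and were not tested in eosinophils alone, so that their differences restate the neutrophil change. The GC mast cell marker cells, left out here, held 1 Chil3 UMI. Whether neutrophil RNA reached other cells of the same droplet channel was not tested.

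Mt1, a metallothionein gene induced by GC and metals, was 0 to 0.180 UMIs per 10000 in control neutrophils and 6.2, 5.85 and 11.7 in GC neutrophils. Eosinophils had 0 to 0.989 in control tumors and no UMI in the GC tumors, and the changes differed by -3.67. With all eosinophils the difference was -2.68, since the 3 GC mast cell marker cells held 28 Mt1 UMIs. Il1r2, which fell in eosinophils, had a log2 change of 0.02 in neutrophils (difference -2.24 ± 0.43, limma adjusted p = 0.00737). Plac8, Mmp8, Slc25a3 and Rnf169 differed by -3.03, -2.53, -2.39 and -2.36. For Mmp8, a neutrophil collagenase gene, the difference came from neutrophils, with changes of 2.46 there and -0.07 in eosinophils. The same held for Rnf169, with changes of 2.47 in neutrophils and 0.11 in eosinophils, where the GC tumors had 1 UMI.

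In the other direction the largest differences by limma were those of Kpna4, Ccdc88c, Lpin2, G3bp1 and Ubn2 (2.14, 1.89, 1.86, 1.81 and 1.76). Ccdc88c, Lpin2, G3bp1 and Ubn2 rested on 10, 4, 6 and 9 UMIs in the GC eosinophils, and Lpin2 was not tested in eosinophils alone. By edgeR 1 gene in all was called with a more positive change in eosinophils, against 17 by limma. Kpna4, a nuclear import receptor gene, was 12.9 to 21.0 UMIs per 10000 in control neutrophils and 8.23, 4.38 and 6.14 in GC neutrophils, and 2.78 to 4.46 in control eosinophils and 8.25, 6.47 and 6.93 in GC eosinophils. The changes of Kpna4 had opposite signs in the 2 clusters, 0.88 in eosinophils and -1.26 in neutrophils (difference adjusted p = 0.00184 by limma). Its rise in eosinophils alone, from 14 UMIs in 7 of 24 cells, was not called (limma adjusted p = 0.113, edgeR adjusted p = 0.715).

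For further genes, the estimated changes in both granulocyte clusters were closer in size for Pim1, Txnip and Klhl6. They were larger in eosinophils for Fmnl2, Acod1 and Il1b. Pim1 changed by -1.37 in eosinophils and -1.3 in neutrophils (difference -0.06 ± 0.31, limma adjusted p = 0.936), Txnip by 1.75 and 1.32 (0.42 ± 0.38, adjusted p = 0.587) and Klhl6 by 2.16 and 2.32 (-0.17 ± 0.50, adjusted p = 0.873). Fmnl2 changed by 4.19 and 2.35 (difference 1.83 ± 0.88, limma adjusted p = 0.273), and Acod1 by -2.33 and -1.58 (-0.76 ± 0.36, adjusted p = 0.262). The difference for Il1b was -1.75 ± 0.53 (limma adjusted p = 0.0787) and passed with all eosinophils (adjusted p = 0.0488). These p-values do not show that the changes were alike.

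**Figure D5:**
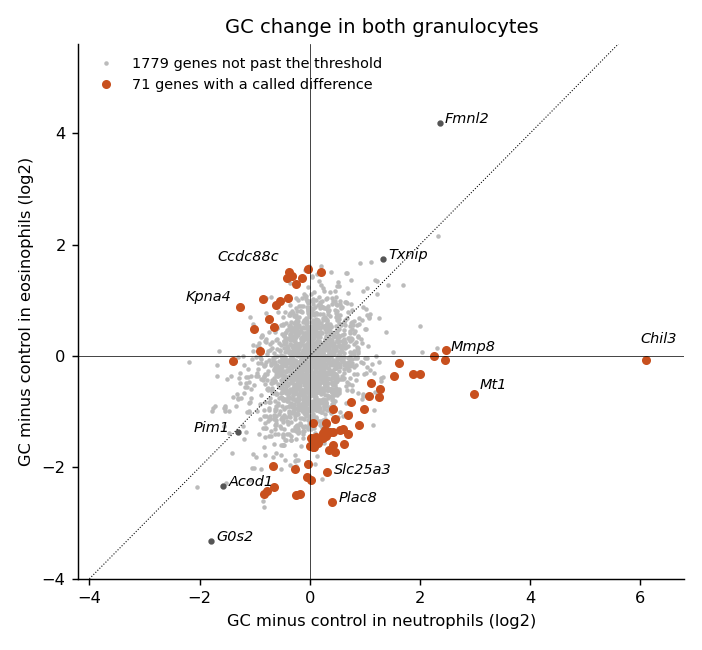
Log2 change from control to GC tumors in neutrophils (horizontal axis) and eosinophils (vertical axis) for 1850 genes without the mast cell marker cells, with the line of equal change and the 71 genes whose changes differed by limma in color. Chil3 lies far to the right at 6.10 in neutrophils and -0.07 in eosinophils, and Txnip and Pim1 lie near the line.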

How the data were processed

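Live CD45+ cells of 10 hashtagged tumors were measured on a droplet 3′ platform, 1 channel per treatment. Per the submitters' processing notes, reads were aligned to mm10 with Cell Ranger 7.1.0 and analysed in R 4.3.1 with Seurat 5.0.3 and Partek. The authors kept cells with a single hashtag, integrated the channels, clustered and named the cells, which removed doublets between tumors but not within 1 tumor, and no doublet caller was run here. The deposited matrix holds the natural log of 1 plus UMIs per 10000. The deposited cell table gives UMI and gene counts and the mitochondrial percent per cell. Deposited hashtag counts were used only through the tumor named for each cell.

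Whole UMIs were recovered for 100% of 10330441 values (within 0.01), and all 4108 cells summed to their listed totals. The tumor was the replicate. Tumors were numbered by hashtag order, so numbers pair nothing across groups. Gene tests used limma 3.58.1 (R 4.3.3, trended and robust variance) on log2 of the mean UMIs per 10000 plus 1, over genes with a mean of at least 1 and tumors with at least 5 eosinophils, at a Benjamini-Hochberg adjusted p of 0.05. The interaction used tumor as a random block. edgeR 4.0.16 and DESeq2 1.42.0 on recovered UMI sums were alternatives, as were other pseudocounts, filters, cell minimums, weights and scalings, and leaving out each tumor. DESeq2 gave no adjusted p for 257 of 1894 genes. The fits were tested on simulated counts. Cell measures used exact two-sided permutation tests. Levels in control eosinophils are pooled UMI sums per 10000 with Poisson intervals, and shares have Clopper-Pearson intervals.

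Named genes were the members of 19 gene lists, the 10 largest folds over the other clusters and in each direction against neutrophils among genes with at least 5 UMIs per 10000, the 10 largest rises and falls past the threshold, and the 5 largest interactions in each direction. G0s2, Retnlg, Tmsb4x, Gm42418 and Malat1 as measures of spread, depth and quality, and the further genes given for the size of a change in both clusters, were chosen after their values were seen, as were the macrophage gene UMIs per cell and the neutrophil share of CD45+ cells. Some genes that the rule names are not reported here. The cluster and the lists were chosen with earlier results of these data known. Positions are from GENCODE vM21 on GRCm38, in which 31432 of 32285 symbols matched once. The kit marks strand, but overlapping genes on the same strand remain uncertain.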

Additional observations from a re-analysis of the deposited data

Results flagged for a closer look

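For 141 sets of values of named genes in the eosinophils of the 5 control tumors, the gap between the most extreme tumor and its neighbor was divided by the range of all 5, and 11 sets passed Dixon's 95% critical value, where chance alone gives about 1 in 20. The lowest tumor stood apart for Retnlg, with a ratio of 0.772. The highest tumor stood apart for Serpinb2 (0.909), Ccl5 (0.858), Siglece (0.729), Dip2c (0.720) and Serinc3 (0.731). It did so too for Plac8 (0.841), Kctd12 (0.783) and Nabp1 (0.753), 3 genes that fell under GC. For Cxcr2 (0.803) and Rdh12 (1) the values rested on 3 and 1 UMIs.

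The GC change differed between eosinophils and neutrophils by limma's interaction test with all eosinophils. The change was more negative in eosinophils for Chil3 (difference -6.06 on the log2 scale), Plac8 (-3.03), Mt1 (-2.68), Mmp8 (-2.53) and Rnf169 (-2.40). It was more positive for Mitf (2.54), Kpna4 (2.03), Lpin2 (1.90), Bmpr2 (1.89) and Ccdc88c (1.75). The 3 GC cells with mast cell genes held 17 UMIs of Mitf and 18 of Bmpr2, and without them the difference for Mitf was 1.83 with an adjusted p of 0.138.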

How the results depend on the processing

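With 24 GC eosinophils in 3 tumors, the number of GC calls moved with most settings. None of the 32 named genes called without the mast cell marker cells changed direction among the alternatives without those cells, but with all eosinophils Il1rl1 did, from -1.68 to 0.06. Of 13 named genes not called, 5 did. Tsc22d3 turned to 0.12 with all eosinophils, 0.11 by edgeR, 0.39 by DESeq2 and 0.13 when log values were averaged (-0.18 to 0.24 without 1 tumor), Nr3c1 to -0.21 by edgeR, and Malat1 ranged from -1.33 to 0.20 without 1 tumor. Siglecf turned to -0.33 by edgeR, -0.0039 by DESeq2, -0.43 with a minimum of 1 eosinophil and -0.021 by median of ratios (-0.024 to 0.27 without 1 tumor), and Alox15 to -0.36, -0.089, -1.12 and -0.032 (-0.12 to 0.45). With all eosinophils limma called 107 genes, and 174 were called by edgeR (77 higher), 193 by DESeq2 (115 higher), 33 without a filter on level, 67 with a filter of 2 per 10000, 991 with a minimum of 10 eosinophils (1 GC tumor, assumed to vary like the controls), 22 with a minimum of 1, 173 with UMI sums, 70 with the mean of log values, and 46 with tumors weighted by cells. Leaving out 1 tumor gave 33 to 388. Without the mast cell marker cells limma called 108, and the counts were 67 by DESeq2 (37 higher), 28 without a filter, 52 with a filter of 2, 22 with a minimum of 1 eosinophil, 68 with the mean of log values, 35 with weights, and 27 to 371 without 1 tumor. Scaling by median of ratios called 159 (11.9% higher against 22.2%) and moved the median change of all genes by -0.13. edgeR and the mean of log values moved that median by -0.23 and 0.14. The interaction count of 62 became 23 with a filter of 2 and 16 to 217 without 1 tumor, and the 71 without mast cell marker cells became 19 to 253. There edgeR called 58, 1 higher against 17 by limma. The cause was not tested. The minimum of 800 UMIs per cell, and after removal of the mast cell marker cells the minimum of 10 eosinophils, left no GC tumor to fit.

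Without 1 tumor the share of CD45+ cells differed by -3.54 to 0.880 percentage points (the last without GC tumor 4), that of granulocytes by -29.9 to -19.1, and the mitochondrial percent by 0.685 to 1.42. The mean of log2 UMIs turned the depth difference to 0.041. No paired analysis was possible because the labels give no replicate numbers that tie control tumors to GC tumors.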
